A study of Mus musculus with 48 samples.

Results

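Epithelial cells are held together by junctions and keep a keratin scaffold, and 10 genes of that machinery were followed across 48 single mouse cells: the keratins Krt8, Krt18 and Krt19, the adhesion genes Cdh1 and Epcam, the tight junction genes Cldn6, Cldn7 and Ocln, and the splicing regulators Esrp1 and Esrp2. The 10 genes were named as a set of epithelial identity genes, and all 10 were found among the 23284 gene symbols of the table. The cells were embryonic stem cell derivatives of strain 129P2/OlaHsd with an inducible Mesp1, a transcription factor of nascent cardiovascular mesoderm. They were grown as embryoid bodies, and the cultures received doxycycline at 500 ng/ml between days 2.25 and 3.25 to switch Mesp1 on; the series holds no uninduced cells. Live cells, negative for propidium iodide, were sorted at day 4 and taken 1 by 1 into the chambers of a Fluidigm C1 chip. The labels give all 48 cells as 1 group of Mesp1-induced mesoderm and name no separate cultures, so cells are described and not tested, and relations between genes carry no p-value.

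In an epithelium, Krt8 or another type II keratin pairs with a type I keratin such as Krt18 or Krt19 to build intermediate filaments. E-cadherin (Cdh1) joins neighbouring cells at adherens junctions, Epcam is a surface adhesion protein of epithelial and pluripotent stem cells, claudins and occludin seal tight junctions, and Esrp1 and Esrp2 direct the epithelial pattern of splicing. When the epiblast passes through the primitive streak, cells give up E-cadherin and leave the epithelium as mesoderm, a step known as an epithelial to mesenchymal transition and driven by repressors such as Snai1 and the Zeb factors. These repressors bind E-box motifs in DNA.

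The E-box recognised by the Snai and Zeb families, CAGGTG, which reads CACCTG when the opposite strand is followed, was searched in RefSeq promoter windows of build GRCm38.p6, in the 250 bases before each start site. Windows were at hand for 6 of the 10 genes, namely Krt8, Krt18, Epcam, Cldn6, Cldn7 and Ocln, and all 6 held the motif in at least 1 window, against 19.4% of 27025 genes in the table. By window, 6 of 8 held it, against 17.2% of all 32851 windows. A match describes the letters only and shows no binding. The stretches below are shown because the repressors measured later in the same cells are known to bind this motif, which stands in capitals. All are written 5′ to 3′ on the strand of the gene. The first pair is the sequence upstream of the annotated start of Krt18 (chr15:102027966-102028179, plus strand, 214 bases) and of Epcam (chr17:87635729-87635978, plus strand, 250 bases); the others are 30 bases around the motif at Cldn6 (chr17:23679260-23679289, plus strand, 93 bases before the RefSeq start site), Cldn7 (chr11:69965352-69965381, plus strand, 57 bases before) and Ocln (chr13:100552549-100552578, minus strand, 68 bases before). The stretches at Cldn6, Cldn7 and Ocln lie inside the gene spans given below, downstream of the annotated start. Cldn7 and Ocln have a pair of windows each, and the motif was found only in the window of the downstream start site, where each held a second copy not shown.
Krt18: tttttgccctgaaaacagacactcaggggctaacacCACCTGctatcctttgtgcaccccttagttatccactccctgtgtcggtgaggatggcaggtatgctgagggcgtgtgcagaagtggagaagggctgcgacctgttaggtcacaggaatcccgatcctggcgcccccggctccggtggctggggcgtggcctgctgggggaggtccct
Epcam: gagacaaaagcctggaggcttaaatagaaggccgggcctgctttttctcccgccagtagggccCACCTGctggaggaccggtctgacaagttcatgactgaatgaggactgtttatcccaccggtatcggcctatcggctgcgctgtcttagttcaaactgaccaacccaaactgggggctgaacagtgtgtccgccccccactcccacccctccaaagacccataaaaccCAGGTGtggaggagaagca
Cldn6: gggaaacgcacgCAGGTGgctatcgccgca
Cldn7: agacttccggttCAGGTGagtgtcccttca
Ocln: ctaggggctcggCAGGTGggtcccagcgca

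Levels are in FPKM, which scale fragments by transcript length and library total, and a gene counted as detected in a cell at 1 FPKM or more. Without counts the depth of a cell cannot be given, and a value of 0 says only that the gene is listed at 0: Hprt, a housekeeping gene, reached 1 FPKM in 31 of the 48 cells. Cells had 4788 to 7010 detected genes, fewer at higher capture sites (rho = -0.82), the site being taken to be the number in the cell's title. The series is labelled mesoderm. Of 10 listed mesoderm genes 9 reached 25% of cells, with Gata4 and Gata6, zinc finger factors of cardiac and lateral mesoderm, in 33 cells each and Pdgfra, a mesoderm receptor, in 31. The endothelial junction genes Cdh5 and Pecam1 reached 1 FPKM in none. Across all symbols, 35.8% were detected in at least 25% of cells, and 5 of the 10 epithelial genes were.

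The keratins of simple epithelia were the most widespread of the set. Krt8 (chromosome 15, 101996698 to 102004482, minus strand) was detected in 33 of 48 cells (68.8%, exact Clopper-Pearson 95% interval 53.7% to 81.3%). Its level over all cells ran between 0 and 648 FPKM, with a median of 17.9 FPKM and quartiles of 0.249 and 113 FPKM. Krt18, the type I partner, lies 23.7 kb away on the same chromosome (102028180 to 102032027, plus strand) and was detected in 28 cells (58.3%, interval 43.2% to 72.4%). It ran between 0 and 601 FPKM, with a median of 11.5 FPKM. Where they were detected, the median was 55.3 FPKM for Krt8 and 167 FPKM for Krt18, and 14 and 15 cells exceeded 100 FPKM. Neither gene was uniform, with 12 cells listing Krt8 at 0 and 15 listing Krt18 at 0. The annotation also holds a processed pseudogene, Krt8-ps, which is not a row of the table, and whether its reads were counted for Krt8 is not known. Intervals cover counting error only and not transcripts lost during amplification.

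Krt19 (chromosome 11, 100140810 to 100148665, minus strand), the other type I keratin of simple epithelia, was detected in 5 cells (10.4%, interval 3.47% to 22.7%), at 82.3, 50.04, 41.8, 26.6 and 23.4 FPKM, and was listed at 0 in the other 43. No cell held it between 0 and the lowest of these values. All 5 cells with Krt19 also held Krt8, Krt18 and Cdh1, and 4 of them held Epcam and 4 held Cldn6. The product of both genes' shares gives 3.44, 2.92, 1.875, 1.77 and 1.35 cells in that order.

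The adhesion genes were detected in fewer cells and at lower levels. Cdh1 was detected in 18 cells (37.5%, interval 23.95% to 52.6%) and lies on chromosome 8 (106603351 to 106670246, plus strand). In those cells it ran between 2.24 and 134 FPKM with a median of 9.08 FPKM, and 25 cells listed it at 0. A single cell, at site 79, held 43.1% of all Cdh1 FPKM in the series, and the next highest cell stood at 33.9 FPKM. Epcam, on chromosome 17 (87635979 to 87651129, plus strand), reached 1 FPKM in 17 cells (35.4%, interval 22.2% to 50.5%), at 1.47 to 71.1 FPKM, with a median of 12.3 FPKM among them. The detected ranges of both genes overlapped, as did their quartiles (4.83 to 14.5 FPKM for Cdh1 and 5.61 to 32.3 FPKM for Epcam). A difference in level was not tested.

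Among tight junction genes, the claudins were present in a minority of cells and occludin was rare. Cldn6, a claudin of early embryonic epithelia and pluripotent cells (chromosome 17, 23679249 to 23682446, plus strand), was present at 1 FPKM or more in 13 cells (27.1%, interval 15.3% to 41.8%). Its values in these cells ran between 1.11 and 258 FPKM, with a median of 39.5 FPKM, and 12 of the 13 exceeded 10 FPKM. Every other cell listed it at 0. Cldn7, another epithelial claudin (chromosome 11, 69964779 to 69967885, plus strand), reached that level in 8 cells, at 2.38 to 59.6 FPKM. Ocln, encoding occludin (chromosome 13, 100496507 to 100552718, minus strand), was detected in 3 cells at 6.54, 4.85 and 2.60 FPKM.

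The splicing regulators were detected in few cells. Esrp1 (chromosome 4, 11331933 to 11386783, minus strand) was detected in 7 cells (14.6%, interval 6.07% to 27.8%) at 2.06 to 27.2 FPKM. Esrp2 (chromosome 8, 106130319 to 106136974, minus strand) was detected in 2 cells, at 13.2 and 4.94 FPKM, and in 1 of them together with Esrp1. The table gives 1 value per gene, so the isoforms that these factors choose between were not measured.

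**Figure D1:**
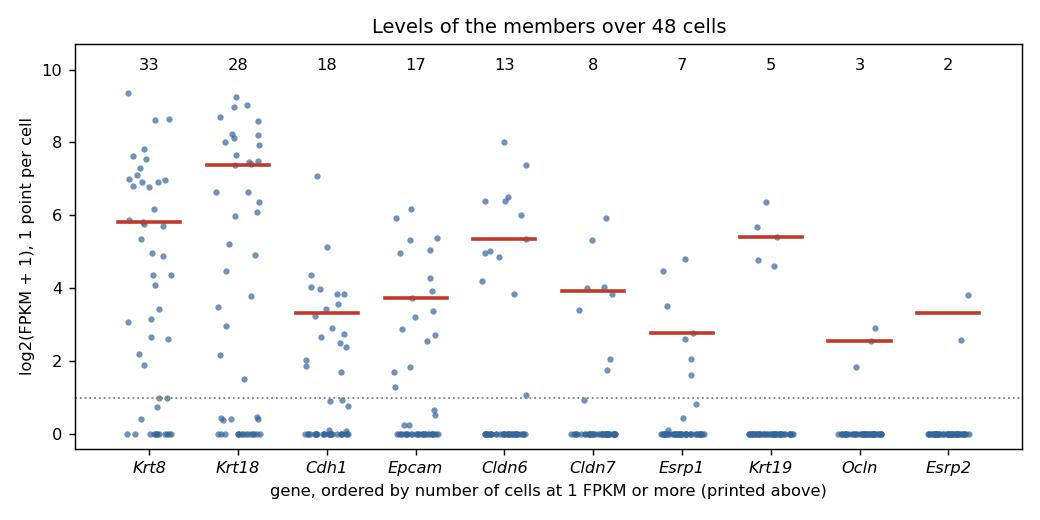
Level of each of the 10 genes in all 48 cells, as log2(FPKM + 1) with 1 point per cell. The red line is the median of the cells at 1 FPKM or more, the dotted line marks 1 FPKM, and the number of such cells stands above, from 33 for Krt8 to 2 for Esrp2.

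Ordered by median level where detected, Krt18 (167 FPKM) stood first, followed by Krt8 (55.3), Krt19 (41.8) and Cldn6 (39.5). Next came Cldn7 (14.2), Epcam (12.3), Esrp2 and Cdh1 (9.08 each), Esrp1 (5.83) and Ocln (4.85). Neighbours from Krt18 to Cldn6 had overlapping quartiles in their detected cells, as did Cldn7 with Epcam and Epcam with Cdh1. Between Cldn6 (27.9 to 82.96 FPKM) and Cldn7 (7.97 to 21.4 FPKM) the quartiles did not overlap, and the 2 values of Esrp2 and 3 of Ocln allow no spread to be judged. The order by level was not the order by number of cells. Krt19 and Cldn6 had high levels in few cells, whereas Cdh1 and Epcam had low levels in more. Over the 10 genes the number of cells and the median level had rho = 0.56, close to the 0.59 over 13930 detected genes without short RNAs, a description over genes that share the same libraries.

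The number of the 10 genes detected in a cell ran between 0 and 8, with a median of 2. There were 9 cells with none, 9 with 1, 8 with 2, 7 with 3 and 1 with 4, while 14 cells held 5 or more. Of the 14, 5 cells held 5 and 6 held 6 of the genes. The cells at sites 1 and 48 held 8 of the genes and the cell at site 62 held 7. The number of epithelial genes had rho = 0.26 with the number of all detected genes and -0.15 with capture site (48 cells), and cells with 5 or more of the genes had 4887 to 7010 detected genes. Of those 14 cells, 9 lay at sites up to 48 (25 cells) and 5 at higher sites (23 cells).

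**Figure D2:**
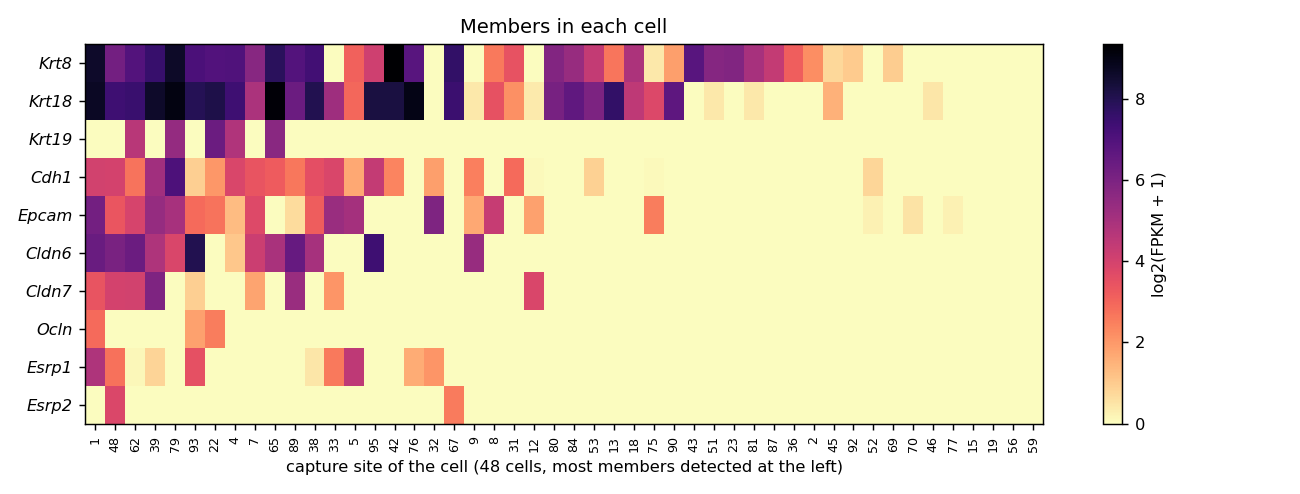
Levels of the 10 genes (rows) in the 48 cells (columns, named by capture site, most genes detected at the left), as log2(FPKM + 1). Keratins extend across 36 cells, while Cdh1, Epcam and the claudins concentrate in the cells at the left.

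Which epithelial genes are lost first cannot be observed in cells taken at 1 time, but the combinations present show which genes occurred without which others. Of 36 cells with Krt8 or Krt18, 17 had none of Cdh1, Epcam, Cldn6 and Cldn7, whereas 3 cells had any of those 4 genes with neither keratin. A further 19 cells had both kinds and 9 had neither. Krt8 and Krt18 were the commonest genes of the set, and commonness alone makes cells with only keratins more frequent than the reverse. Whether 17 and 3 cells differ from what the shares give was not tested. Of the 9 cells with a single gene of the set, 8 held Krt8 and 1 held Krt18, and of the 8 cells with a pair, 6 held Krt8 with Krt18. No cell held Cdh1 or a claudin as its sole gene of the set.

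Cells with junction genes mostly held keratins too, but Krt8 and Krt18 were common, so each count is set beside the number that the product of both genes' shares gives. Of 18 cells with Cdh1, 16 had Krt18 (product 10.5 cells) and 15 had Krt8 (12.4 cells). Of 17 cells with Epcam, 12 had Krt8, where the product gives 11.7 cells. Of 13 cells with Cldn6, 12 had Cdh1 (4.88 cells), 12 had Krt8 (8.94 cells) and 12 had Krt18 (7.58 cells). The counts with Krt8 were thus nearer to the product than that of Cldn6 with Cdh1. Of 8 cells with Cldn7, 7 had Cdh1 (3 cells), 7 had Epcam (2.83 cells) and 7 had Krt18 (4.67 cells). All 3 cells with Ocln had Krt8 (2.06 cells), Krt18 (1.75 cells) and Epcam (1.06 cells). The combination of Cdh1, Epcam, Cldn6 and Cldn7 was complete in 5 cells, and all 5 also held both keratins. Over the 45 pairs of genes, the rarer gene was detected without the commoner in 74 of 326 instances (22.7%), where the products of shares give 51.6%, and in 8 pairs never. Krt8 and Krt18 were thus missing from the fewest cells, Cdh1 and Epcam came next, then Cldn6, and after it Cldn7, Esrp1, Krt19, Ocln and Esrp2. This order mixes presence with the ease of detection, whose part was not tested. At a threshold of 10 FPKM Cldn6 (12 cells) came before Epcam (9 cells) and Cdh1 (8 cells). The order also differed by capture site. Above site 48, Cldn6 (6 cells) came before Cdh1 (5 cells) and Epcam (4 cells). At sites up to 48, Cldn6 had 7 cells, beside 13 for Cdh1 and 13 for Epcam.

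The nesting was incomplete. Epcam occurred without Krt8 in 5 of its 17 cells and without Cdh1 in 4. The cell at site 32 had 59.3 FPKM Epcam, 2.64 FPKM Cdh1 and 3.20 FPKM Esrp1 with both keratins listed at 0. The cell at site 42 had the highest Krt8 of all (648 FPKM) and 297 FPKM Krt18, beside 4.26 FPKM Cdh1 and no claudin or Epcam. Krt19 and Esrp1 were detected in 5 and 7 cells and never in the same cell; with so few cells the product of their shares gives only 0.729 cells with both.

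Over all 48 cells, those at 0 included, most pairs of the genes had a positive rho. Krt8 and Krt18 had rho = 0.73 over 48 cells (r = 0.73 on log2(FPKM + 1)), and rho = 0.71 over the 25 cells with both, so the relation was present in level as well as in detection. It was 0.66 at sites up to 48 and 0.81 at higher sites. Cdh1 had rho = 0.74 with Cldn6, 0.67 with Epcam, 0.61 with Krt18 and 0.43 with Krt8. Within the cells that held both genes of a pair, Cdh1 had rho = 0.21 with Epcam (13 cells) and -0.22 with Cldn6 (12 cells). For these pairs the relation over 48 cells was thus seen in detection more than in level.

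Relations among the genes other than keratins were larger on average than those between keratins and these genes, a difference that was not tested. Among Cdh1, Epcam, Cldn6, Cldn7 and Esrp1 the 10 pairs had a mean rho of 0.57 (0.40 to 0.74). Between Krt8 or Krt18 and these 5 genes the 10 pairs had a mean of 0.37 (0.14 to 0.61), the lowest being Krt8 with Epcam. With Krt19 included, the 15 pairs had a mean of 0.31 (-0.05 to 0.61). Of 28 pairs among the 8 genes found in 5 or more cells, 18 had rho of 0.40 or more, against 0.445% of 56153503 pairs of all genes in 5 or more cells, whose mean rho was 0.015. After rank regression on the number of detected genes, Krt8 with Krt18 remained at 0.73, Cdh1 with Epcam at 0.63 and Cdh1 with Cldn6 at 0.75.

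**Figure D3:**
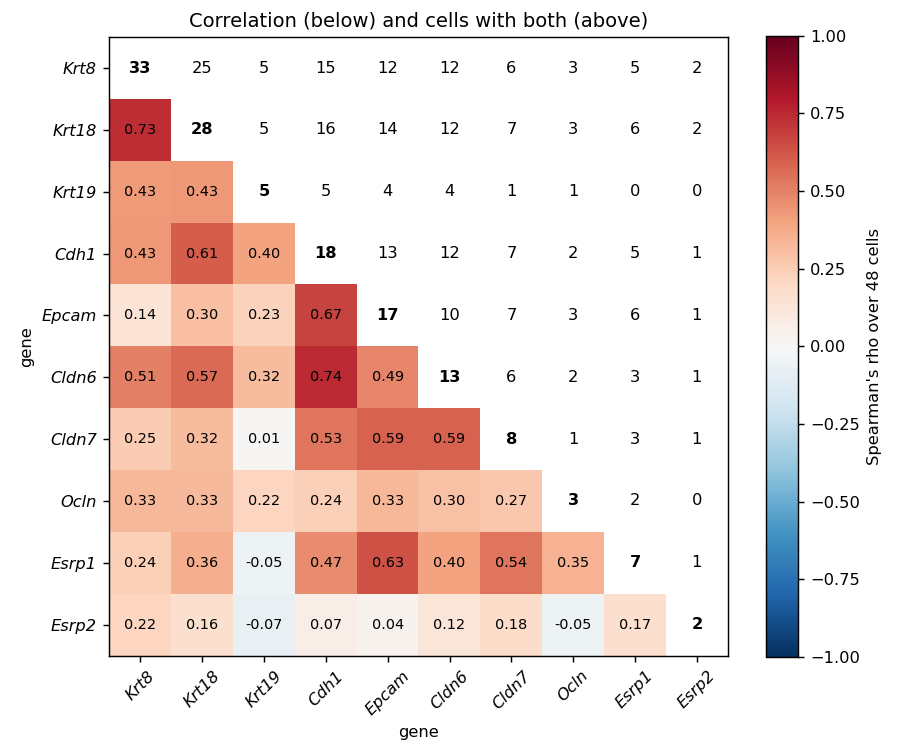
Spearman's rho over 48 cells for each pair of the 10 genes (coloured, below the diagonal), the number of cells with each gene (bold, on the diagonal) and the number with both (above). The Krt8 and Krt18 pair (0.73) and the Cdh1 and Cldn6 pair (0.74) had the highest values.

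Other genes of epithelial junctions and identity were examined from lists. For each gene, rho was taken with an epithelial score, the mean of the z-scored log2(FPKM + 1) of the 8 genes found in 5 or more cells. Of 8331 other genes detected in 25% of cells or more, without short RNAs, 1.92% had rho of 0.4 or more with the score, 0.696% had -0.4 or less, and the median was 0.025. All 3 measurable epithelial regulators were at 0.4 or more: Rbm47, an RNA-binding protein (rho = 0.65, 19 cells), Grhl2, a grainyhead factor that maintains Cdh1 and claudins (0.51, 5 cells) and the ETS factor Elf3 (0.50, 15 cells). In a list of epithelial protease and surface genes, 4 of 6 measurable genes were at 0.4 or more. Spint2 (0.71, 26 cells) and Spint1 (0.50, 16 cells) are protease inhibitors. Ap1m2 (0.53, 6 cells), an adaptor subunit, and Rab25 (0.41, 6 cells), a vesicle GTPase, made up the rest. Below 0.4 were Lsr (0.08), the most widespread of this list at 31 cells, and Prss8 (0.31, 11 cells). The genes in 5 or 6 cells rest on little. Spint2 was detected in all 18 cells with Cdh1 (product of shares 9.75 cells) and in 8 others. Its rho with Cdh1 was 0.76, at 0.78 and 0.69 in lower and higher sites.

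Structural junction genes were less closely tied. In the tight junction list 1 of 6 measurable genes reached 0.4, F11r, the junctional adhesion molecule JAM-A (0.57, 22 cells), while the scaffold Tjp1 (28 cells), which also serves other junctions, had 0.06. Cldn12 was detected in 32 cells with rho = 0.09, and Cldn3 and Cldn4, relatives of the claudins above, in 2 and 1 cells. The catenins, which anchor cadherins of all kinds, were nearly universal: Ctnna1 and Ctnnb1 were detected in 48 cells and Ctnnd1 in 44, with rho of 0.31, -0.03 and -0.09. Of desmosome genes, the cadherin Dsg2 (0.44, 19 cells) reached 0.4 and desmoplakin, Dsp (0.38, 21 cells), and plakoglobin, Jup (0.30, 21 cells), did not. Among polarity genes 1 of 7 did, Crb3 (0.49, 6 cells). In the list of other keratins Krt10 was detected in 17 cells (rho = 0.18) and Krt7 in 4. The stratified keratins Krt5, Krt14, Krt1 and Krt4 were listed at 0 in all 48 cells.

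The nearest genes in expression were listed for Krt8, Krt18, Cdh1 and Epcam. Spint2 was shared by Krt18 and Cdh1, and Pou5f1 by Cdh1 and Epcam. By the same filter, the genes most correlated with Krt8 included Cdh2 (0.60) and the respiratory subunit Ndufb4 (0.55), and the 3 most correlated with Krt18 were the peptide hormone gene Calca (0.62), Spint2 (0.61) and the kinase gene Dgkk (0.57). For Cdh1 they were Spint2 (0.76), the pluripotency factor Pou5f1 (0.76) and Rbm47 (0.74), and for Epcam Pou5f1 (0.71), Nanog (0.65) and Pex7 (0.63), a peroxisomal import receptor. No test of a difference between these lists was made. Of all genes by the filter, 0.756% had rho of 0.4 or more with Krt8, 0.876% with Krt18, 2.06% with Cdh1 and 1.44% with Epcam. At -0.4 or less the shares were 0.348% for Krt8, 0.492% for Krt18, 0.624% for Cdh1 and 0.432% for Epcam.

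With the score of all 8 genes, the highest included Spint2 (0.71), Rbm47 (0.65), Upp1 (0.63), Dgkk (0.63), Foxa2 (0.62), Pou5f1 (0.61), Tdgf1 (0.60), Pan2 (0.60) and Calca (0.59). Foxa2, a forkhead factor of the anterior streak and endoderm, was detected in 12 cells, of which 10 held Cdh1 and 11 held Krt18. The products of shares give 4.5 and 7 cells in that order. The lowest were Hmga2 (-0.62), Hoxb3 (-0.61), Prtg (-0.59), the matrix proteoglycan gene Vcan (-0.59), the mitotic kinase gene Cdk1 (-0.58), Jam3 (-0.57), the retinoic acid synthase gene Aldh1a2 (-0.54), Arl3 (-0.52), Foxc1 (-0.51), a forkhead factor of paraxial mesoderm, and Fbn2 (-0.51). All of these genes kept their sign at lower and at higher sites, with Aldh1a2 at -0.74 and -0.31.

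Pluripotency genes were described from a list of 14. Of these, 5 had rho of 0.4 or more with the score: Pou5f1 (0.61), Tdgf1 (0.60), a Nodal co-receptor, Fgf5 (0.58), a gene of the primed epiblast, Nanog (0.50) and Dppa5a (0.41). All 18 cells with Cdh1 held Pou5f1, which was detected in 8 further cells, and none of the 22 cells without Pou5f1 held Cdh1. The product of shares gives 9.75 cells with both. Of the 17 cells with Epcam, 16 held Pou5f1 (product 9.21 cells). Krt8 had rho = 0.17 with Pou5f1 and 0.16 with Nanog, beside 0.76 and 0.63 for Cdh1. Lin28a (48 cells) and Dnmt3b (47 cells), the most widespread of the list, had 0.15 and 0.29 with the score, and Sox2 (18 cells), a core pluripotency factor, had 0.12. Hprt, an X-linked housekeeping gene with no epithelial role, had rho = 0.52 with the score, Gapdh 0.34 and Actb -0.36, and their part in these relations was not tested.

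**Figure D4:**
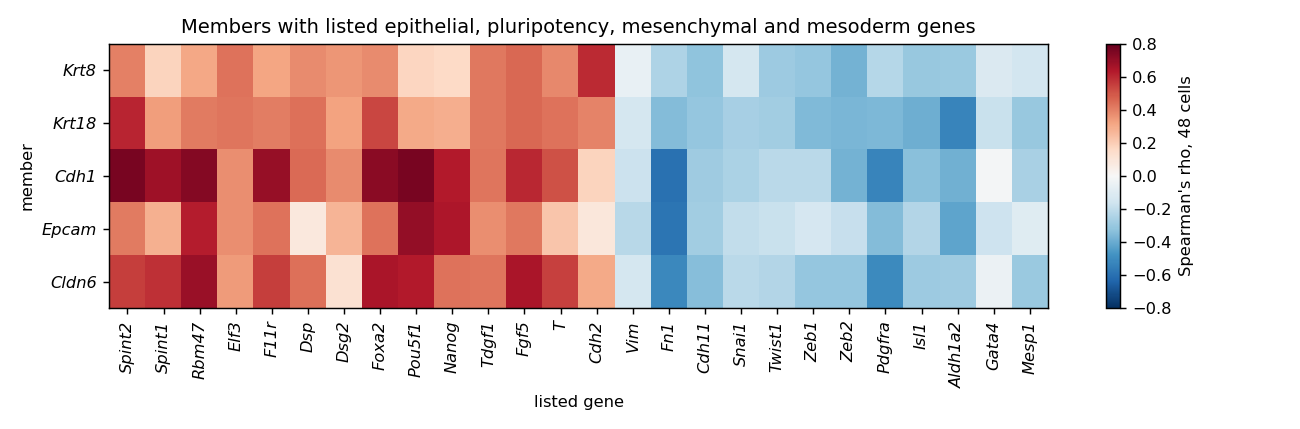
Spearman's rho over 48 cells of Krt8, Krt18, Cdh1, Epcam and Cldn6 (rows) with listed genes (columns, from epithelial at the left over pluripotency and mesenchymal to mesoderm genes at the right). Cdh2 had 0.60 with Krt8 and 0.18 with Cdh1, and Fn1 had -0.24 with Krt8 and -0.60 with Cdh1.

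Of 10 listed mesenchymal genes, 4 reached 25% of cells. Vim, the intermediate filament of mesenchyme, Fn1, fibronectin, and Cdh2, N-cadherin, were each detected in 47 cells, at medians of 90.9, 60.04 and 25.1 FPKM. All 18 cells with Cdh1 held Cdh2, so E-cadherin and N-cadherin transcripts were together in each of them. With Cdh2 in 47 cells, the product of shares already gives 17.6 cells with both. Cdh2 rose with Krt8 (rho = 0.60, r = 0.60, r = 0.57 without the 2 farthest cells, 0.68 and 0.46 at lower and higher sites) and had rho = 0.40 with Krt18, 0.18 with Cdh1 and 0.09 with Epcam. Fn1 moved against Cdh1 (-0.60, with -0.78 and -0.47 at lower and higher sites) and Epcam (-0.58), with -0.24 for Krt8 and -0.35 for Krt18. Vim had rho of -0.06 with Krt8, -0.14 with Krt18, -0.17 with Cdh1 and -0.22 with Epcam, and that with Krt8 was 0.17 at lower and -0.35 at higher sites. Cdh11, a mesenchymal cadherin in 31 cells, had rho = -0.45 with the score. The other 6 genes of the list were rarer: Prrx1 was detected in 11 cells, Col1a2 in 10, Acta2 in 8, Col1a1 in 2, Col3a1 in 1 and S100a4 in none.

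**Figure D5:**
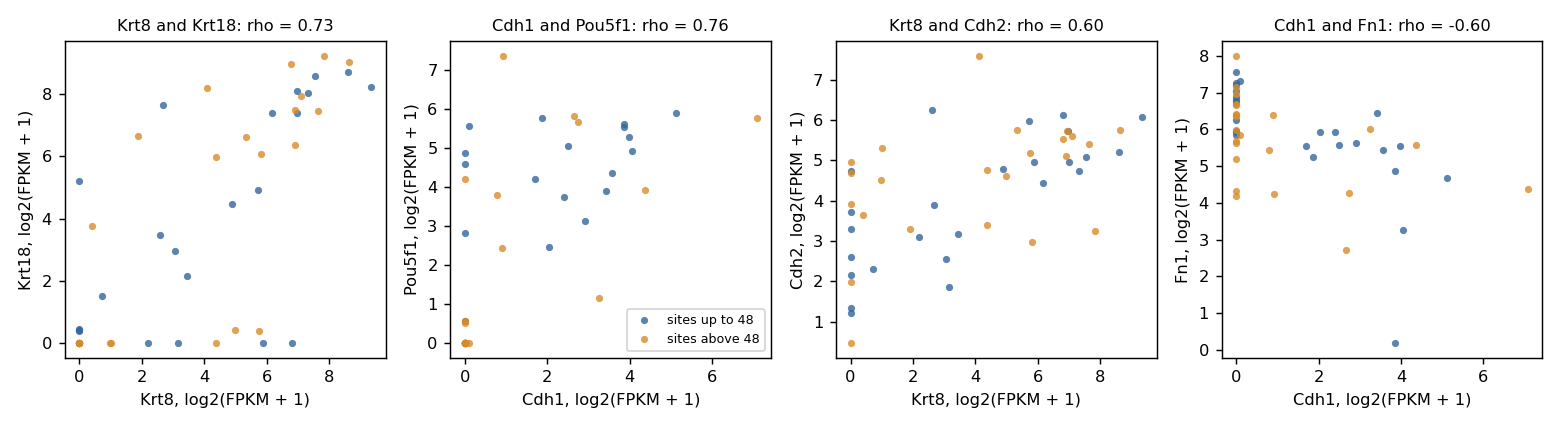
Levels in each of 48 cells as log2(FPKM + 1) for Krt8 with Krt18, Cdh1 with Pou5f1, Krt8 with Cdh2 and Cdh1 with Fn1, coloured by capture site. Krt8 rises with Cdh2 (rho = 0.60), all 18 cells with Cdh1 lie above 1 FPKM of Pou5f1, and Cdh1 runs against Fn1 (rho = -0.60).

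Repressors of epithelial genes were not exclusive of them. Snai1 was detected in 30 cells, Zeb1 in 28, Zeb2 in 23 and Twist1 in 19. Of the 18 cells with Cdh1, 9 held Snai1, 9 held Zeb1, 6 held Twist1 and 5 held Zeb2. The products of shares give 11.25, 10.5, 7.1 and 8.6 cells in that order, so each count lay below its product. These differences were not tested. With the score, rho was -0.26 for Snai1, -0.32 for Zeb1, -0.28 for Twist1 and -0.38 for Zeb2. Over all 48 cells none of the 5 measurable factors reached -0.4. At sites up to 48, 3 of them did: Snai1 (-0.49), Twist1 (-0.46) and Zeb2 (-0.46), which had -0.21, -0.15 and -0.27 in that order at higher sites. With Cdh1 alone Snai1 had -0.25, with -0.44 at lower and -0.22 at higher sites. Snai2, detected in 6 cells, shared 1 with Cdh1.

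Of 11 streak genes 2 had rho of 0.4 or more with the score, and the median was 0.27. T (brachyury) had rho = 0.47 with the score and 0.44 with Krt18, and 19 of its 26 cells held Krt18 (product of shares 15.2 cells). With Cdh1 it had 0.51, at 0.33 and 0.79 in lower and higher sites. Eomes, a T-box factor of streak and endoderm (35 cells), had 0.41 with the score. Lhx1, the most widespread of the list (38 cells), had 0.18, Mixl1 (30 cells) 0.29, Evx1 (13 cells) -0.01 and Mesp2 (13 cells) -0.06. The induced gene Mesp1, detected in 30 cells, had -0.22 with the score. Of the 18 cells with Cdh1, 9 held Mesp1, where the product of shares gives 11.25 cells. Among mesoderm genes 3 of 10 had -0.4 or less: Aldh1a2 (-0.54), the cardiac progenitor factor Isl1 (-0.44) and Pdgfra (-0.43). Gata4 and Gata6, each in 33 cells, had -0.09 and 0.08.

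Markers of other epithelia that could carry these keratins and claudins were mostly absent. Of 9 endoderm genes, 1 (Foxa2) reached 25% of cells; Sox17 was detected in 1 cell, Apoa1 in 3 and Hnf4a in none, and the summed level of the list ran between 0 and 178 FPKM with a median of 0. Of 6 trophoblast genes, 1 reached 25%, Gata3, in 23 cells with rho = -0.39; Cdx2 reached 1 FPKM in 3 cells with a highest level of 1.42 FPKM, and Elf5 was listed at 0. The summed level of the trophoblast list ran between 0 and 79.8 FPKM. Of 5 surface ectoderm genes none reached 25% of cells, their sum ran between 0 and 13.8 FPKM, and Trp63 was listed at 0. Of 5 neurectoderm genes 1 did, Otx2, which epiblast and anterior streak cells also express, in 24 cells (rho = 0.43). The neurectoderm sum ran between 0 and 193 FPKM. The part of such cells in the epithelial signal was not tested.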

How the data were processed

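RNA was sequenced from 48 single cells, and the authors deposited 1 table with a column per cell. Its values are treated as FPKM: the header of the deposited table gives none, and this reading rests on Cufflinks 2.2.1.0 being listed, per the submitters' processing notes, and on values that are not whole. The same notes list TopHat 0.7, CASAVA 1.8.2 and mm10 without saying what each was used for. For annotation, read filters and scaling: not given in the sources used here. Depth cannot be recovered from FPKM.

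Rows with the same symbol were summed, giving 23284 symbols. Detection meant 1 FPKM or more, and shares of cells with a gene of the set were given Clopper-Pearson 95% intervals. Correlations are Spearman's rho over cells; Pearson's r and scores used log2(FPKM + 1). Correlations were given for genes found in at least 5 cells, and the search over all genes used those in at least 12 cells, without 775 short RNA symbols; its ranking was tested on simulated data. The labels name no separate cultures and give 1 group, so no p-value was made. No cell was removed and no doublet caller was run. Coordinates are from GENCODE M21 (GRCm38) and promoters from RefSeq GRCm38.p6. Foxf1 was read from its older symbol Foxf1a.

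The 10 genes, the 17 other lists and the rule for named genes were chosen with earlier results of these data known. The rule named all 10 genes, up to 4 genes per list by number of cells, list genes with rho of at least 0.4 in size, the 10 highest and 10 lowest genes with the score, and the 3 nearest genes of Krt8, Krt18, Cdh1 and Epcam. Other list genes (among them Snai2, Cldn3, Cldn4, Krt7, Jup, Sox2, Evx1, Mesp2 and the rarer mesenchymal genes) were named after their values were seen. A few items that the rule or the motif search gave are not reported here. Alternatives varied the detection threshold (0.1 and 10 FPKM), pseudocount (0.1 FPKM), scaling, cells, capture sites, covariates and the filter on genes. Python 3.11.15, pandas 2.3.3, numpy 2.4.6 and scipy 1.17.1 were used.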

Additional observations from a re-analysis of the deposited data

How the results depend on the processing

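Of 155 recomputed values, 135 stayed within 1.5 times for counts, within the 95% interval for the share, or within 0.1 for rho. No rho among them changed sign, and counts and shares cannot. Krt8 with Vim, not among the recomputed pairs, had rho = 0.17 at sites up to 48 and -0.35 at higher sites. Krt8 with Krt18, and the members' mean rho with pluripotency genes, stayed within 0.1 in every setting tried. At 10 FPKM, 3 genes reached 25% of cells in place of 5, the median per cell was 1 in place of 2, the rarer gene occurred without the commoner in 31.25% of instances, and the epithelial score had rho = -0.29 with a score of the mesenchymal list made the same way, in place of -0.40. At sites above 48 alone, 3 genes reached 25% of cells, the mean rho of the genes' pairs was 0.65 in place of 0.42 (fewer genes passed the filter there), and the epithelial and mesenchymal scores had rho = -0.29. At sites up to 48 the genes' mean rho with the repressors was -0.33 in place of -0.21. Among 10 single pairs, 6 of 60 recomputed values moved by more than 0.1, all of them within 1 of the site ranges. The causes were not tested. The pseudocount bears on scores only, since ranks do not change with it. No paired analysis was possible because the labels give 1 group. Without counts, low genes such as Ocln, Esrp1 and Esrp2 cannot be told from undetected ones where listed at 0.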
